A study of Mus musculus with 22 samples.

Results

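The cassette exons of 2 genes for secreted adhesion proteins, Fn1 (fibronectin) and Mfge8 (MFG-E8, also called lactadherin), were followed in mouse embryonic stem (ES) cells. The genes were picked with earlier results of these data known. Within them the exons were chosen by position: every skipped-exon event whose whole span lies within the mm10 span of either gene was taken. That gave 3 events, 2 in Fn1 and 1 in Mfge8, of 10873 events in all, and each of the 3 was listed in all 7 libraries. In mm10 the Fn1 gene spans chr1:71585473-71653280 and the Mfge8 gene chr7:79133768-79149060.

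RNA was sequenced from 7 groups, each with 2 replicates that the authors pooled into 1 library before deposit. TKO cells, ES cells that lack the DNA methyltransferase genes Dnmt1, Dnmt3a and Dnmt3b, were compared with R1 cells, the wild type (WT). Both lines were also transfected with siRNA against the heterochromatin protein 1 (HP1) family, whose chromodomain recognises methylated histone H3. The triple knock-down (KD) of TKO cells used 80, 80 and 120 nM of siRNA against HP1alpha, HP1beta and HP1gamma, and that of WT cells used 60 nM of each. WT cells also received siRNA against HP1alpha, HP1beta or HP1gamma alone at 90 nM. RNA was taken 48 h after transfection, and the remaining groups, TKO and WT, were untransfected. The TKO and WT lines came from different sources, so the loss of the methyltransferases cannot be told apart from any other difference between the lines. All groups were cultured without feeder cells in medium with LIF. The series concerns DNA methylation, HP1 and the choice of alternative exons.

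Fibronectin is a large matrix glycoprotein that cells bind through integrins. Its transcript carries alternatively spliced exons, among them the extra domains EDB and EDA, each of which encodes a whole type III repeat. Plasma fibronectin from the liver lacks both, whereas fibronectin made by embryonic and many cultured cells often contains them. MFG-E8 is a secreted bridge: its EGF-like part holds an RGD motif that integrins bind, and its C-terminal discoidin domains bind phosphatidylserine on dying cells and membrane vesicles. In the mouse, a long form of MFG-E8 carries an added proline- and threonine-rich segment that the short form lacks.

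The upstream Fn1 event skips the exon at chr1:71613763-71614035 on the minus strand, 273 nucleotides or 91 codons long. By its length and its place before the second event this is the EDB exon. The downstream event skips chr1:71603660-71603929, 270 nucleotides or 90 codons, which by the same reasoning is the EDA exon. The Mfge8 event skips chr7:79143278-79143388, also on the minus strand, 111 nucleotides or 37 codons, the length of the proline- and threonine-rich segment. These names come from general knowledge of the genes, since the files give coordinates alone. All 3 exons keep the reading frame when skipped, a property of 46.6% of all 10873 exons. The Fn1 exons are long, with 94.3% and 94.2% of all exons shorter than EDB and EDA, and the Mfge8 exon is near the median length of 105 nucleotides. EDB lies between introns of 1324 (upstream) and 1112 (downstream) nucleotides, EDA between 1040 and 1162, and the Mfge8 exon between 1858 and 227, against medians of 1985 upstream and 1949 downstream over all events. No event was listed for the other alternatively spliced region of fibronectin, the variable region.

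Event reads, the reads counted over all events, numbered 4677236 to 9750348 in the 5 knock-down libraries, against 25200437 in TKO and 25941844 in WT. Untransfected libraries were sequenced as single reads of 50 bases and knock-down libraries as read pairs of 101 bases. Knock-down, transfection and read length therefore coincide whenever a knock-down is set against untransfected cells, and no control siRNA group is labelled. The targeted genes were lower in their knock-downs. Relative to the other single knock-downs pooled, event reads stood at a ratio of 0.399 for Cbx5 (HP1alpha), 0.324 for Cbx1 (HP1beta) and 0.634 for Cbx3 (HP1gamma). Dnmt3a and Dnmt3b stood at 0.450 and 0.157 in TKO to WT. Of 14 ES cell markers 6 had a listed event (Klf4, Sall4, Tbx3, Tcl1, Tdgf1 and Zfp42), while Pou5f1, Nanog and Sox2 were not among the listed events. With 1 pooled library per group there was no replicate measurement. Every test below compares libraries, not conditions, and intervals cover counting error only.

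The main measurement is the deposited inclusion level, the share of transcripts (0 to 1) that include the exon, with the interval deposited beside it, whose confidence level is not stated. EDB was included at 0.65 (0.60 to 0.70) in the TKO triple knock-down and 0.48 (0.43 to 0.53) in the WT triple knock-down. After single knock-down in WT cells it stood at 0.45 (0.42 to 0.48) for HP1alpha, 0.54 (0.50 to 0.58) for HP1beta and 0.45 (0.41 to 0.50) for HP1gamma. Untransfected cells had the highest levels, 0.93 (0.92 to 0.94) in TKO and 0.84 (0.82 to 0.86) in WT. TKO libraries were above the WT libraries of the same kind, and every untransfected library was above every knock-down library.

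EDA was included in most transcripts everywhere. Its level was 0.94 (0.91 to 0.97) in the TKO triple knock-down, 0.85 (0.79 to 0.91) in the WT triple knock-down, 0.86 (0.82 to 0.90) after HP1alpha, 0.85 (0.81 to 0.89) after HP1beta and 0.82 (0.78 to 0.87) after HP1gamma knock-down, against 0.78 (0.76 to 0.81) in TKO and 0.77 (0.75 to 0.80) in WT. By this level the knock-down libraries lay above the untransfected ones. Levels computed from distinguishing reads alone turned that order round for the WT knock-downs, which had 0.898 to 0.919, against 0.955 in WT, while the TKO triple knock-down had 0.969, against 0.961 in TKO.

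The Mfge8 exon had the lowest level of the 3 in 5 of the 7 libraries, and lay just above EDB in the WT triple and HP1gamma knock-downs. Its level was 0.28 (0.22 to 0.35) in the TKO triple knock-down and 0.52 (0.45 to 0.59) in the WT triple knock-down. Single knock-downs gave 0.41 (0.36 to 0.46) for HP1alpha, 0.41 (0.36 to 0.46) for HP1beta and 0.46 (0.41 to 0.51) for HP1gamma. Untransfected cells had the lowest levels, 0.04 (0.02 to 0.06) in TKO and 0.20 (0.16 to 0.25) in WT. Here TKO libraries were below the WT libraries of the same kind.

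**Figure D1:**
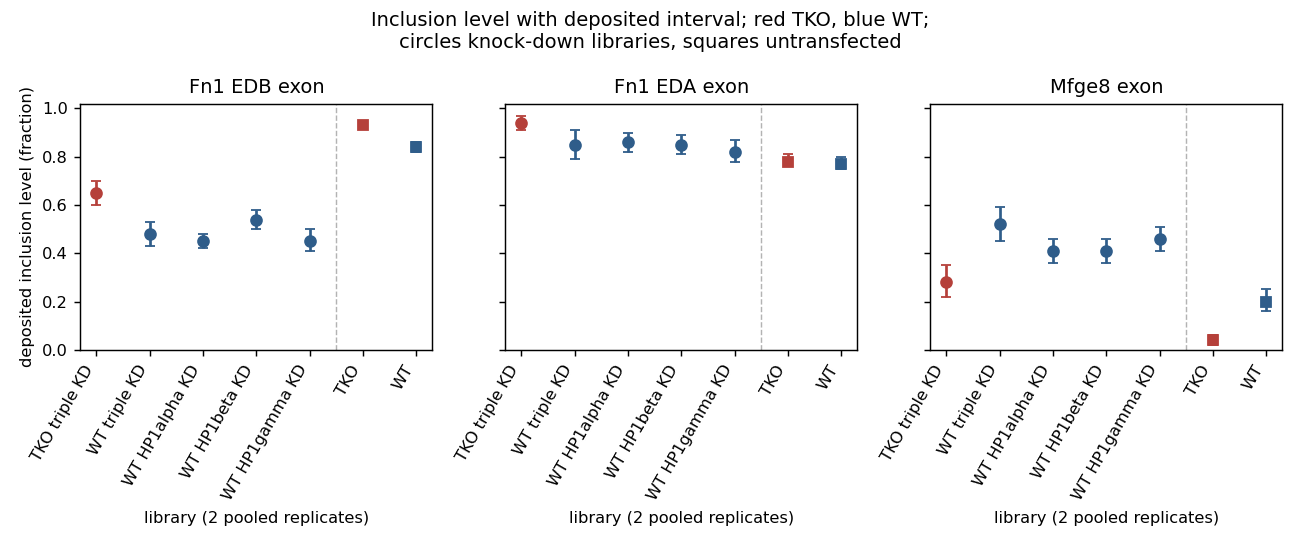
Deposited inclusion level (fraction, vertical axis) of the Fn1 EDB, Fn1 EDA and Mfge8 exons in the 7 pooled libraries, with the deposited interval as the bar. For EDB the TKO points lie above the WT points of the same library type (0.65 against 0.48, and 0.93 against 0.84), and for Mfge8 they lie below (0.28 against 0.52, and 0.04 against 0.20).

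Each level rests in part on distinguishing reads, those that fit the inclusion isoform alone or the skipping isoform alone. For each pair of libraries, these reads went into Fisher's exact test (two-sided). Benjamini-Hochberg adjustment was over all events that had 20 or more distinguishing reads in both libraries of the pair. Here "called" means an adjusted p up to 0.05 together with a level difference of 0.1 or more.

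Loss of the DNA methyltransferases was examined in untransfected cells first. Inclusion of the Mfge8 exon, which makes the long form, fell to 0.04 in TKO, against 0.20 in WT. On the reads, 12 were for inclusion and 70 for skipping in TKO, against 71 and 48 in WT. The log2 odds ratio of inclusion was -3.11 (95% interval -4.14 to -2.08), and the adjusted p of Fisher's exact test was 5.73e-09. EDB had 3230 inclusion and 92 skipping reads in TKO, against 2541 and 133 in WT, a log2 odds ratio of 0.88 (0.49 to 1.27). Its adjusted p was 0.000289 in the exact test and the intervals lay apart, but its difference of 0.09 missed the minimum of 0.1, so it was not called. EDA had 2692 inclusion and 17 skipping reads in TKO, against 2203 and 16 in WT, and its level differed by 0.01 (adjusted p = 1, exact test), with a log2 odds ratio of 0.20 (-0.79 to 1.19). Thus 1 of the 3 exons was called, where 4.57% of all 7695 tested events were.

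TKO and WT cells were also compared under the triple knock-down, in separate libraries of equal read length. Dose differed between these libraries, and depletion may have. Relative to the single knock-downs of other genes pooled, event reads of Cbx1 stood at 0.641 in the TKO and 0.352 in the WT triple knock-down. Those of Cbx5 stood at 0.468 and 0.522, and those of Cbx3 at 0.691 and 0.710. The single knock-downs were all in WT cells, so the TKO values mix depletion with any difference between the lines in these genes. The line and these differences cannot be told apart here. Mfge8 inclusion fell to 0.28 in the TKO triple knock-down, against 0.52 in the WT triple knock-down, on 67 inclusion and 65 skipping reads in TKO and 191 and 64 in WT. The log2 odds ratio was -1.53 (-2.17 to -0.89), and the adjusted p of Fisher's exact test was 0.000787. EDB inclusion rose to 0.65 in the TKO triple knock-down, against 0.48 in the WT triple knock-down, on 607 and 78 reads in TKO and 476 and 127 in WT, a log2 odds ratio of 1.05 (0.61 to 1.50) with adjusted p = 0.000787 (exact test). EDA had 1051 inclusion and 9 skipping reads in TKO, against 718 and 18 in WT. Its level was 0.09 higher in TKO, with an unadjusted p of 0.00918 and an adjusted p of 0.399 in the exact test, and was not called. Of the 3 exons 2 were called, where 0.469% of 4473 tested events were (21 events).

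Both contrasts of TKO with WT were testable for 4344 events. Of these 209 were called in untransfected cells and 20 under the triple knock-down, and 7 were called in both, all 7 in the same direction. The Mfge8 exon was 1 of these 7. The members were picked with earlier results of these data known, so their place among the called events is a description.

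**Figure D2:**
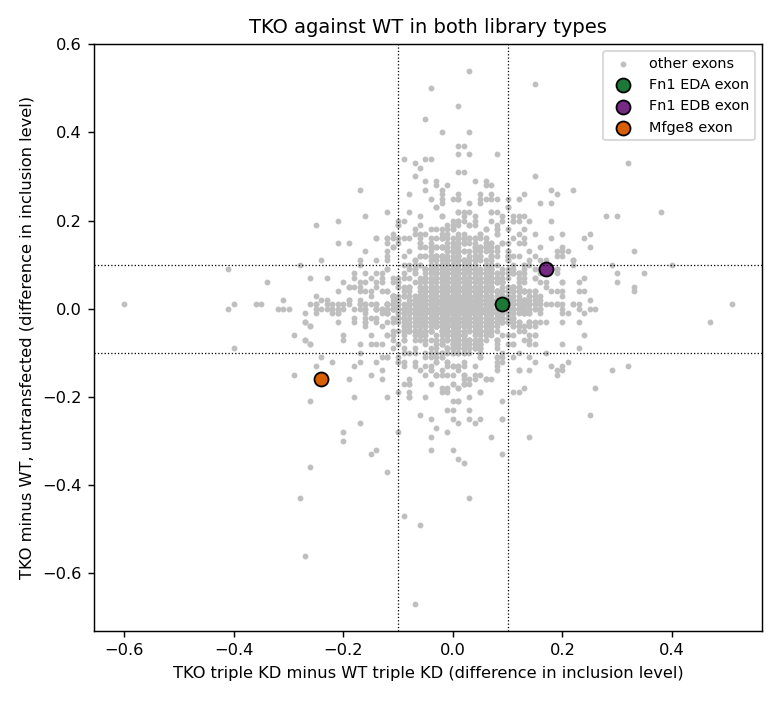
Difference in inclusion level between TKO and WT for the 4344 exons tested in both kinds of library, under the triple knock-down (horizontal axis) and in untransfected cells (vertical axis), with the minimum difference of 0.1 as dotted lines. The Mfge8 exon lies at -0.24 and -0.16, EDB at 0.17 and 0.09, and EDA at 0.09 and 0.01.

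The effect of the triple knock-down was next compared between TKO and WT cells, by Zelen's exact test for homogeneous odds ratios. For EDB the log2 ratio of odds ratios, TKO minus WT, was 0.18 (-0.41 to 0.77; adjusted p = 1, exact test). For EDA it was 1.35 (-0.18 to 2.87; adjusted p = 1, exact test) and for Mfge8 1.58 (0.36 to 2.79), with an unadjusted p of 0.011 and an adjusted p of 0.23 in the exact test. None of the 3 was called, where 2.69% of 4344 events were. A dependence on the cell line was thus not detectable for these exons at this depth.

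HP1 knock-down was then set against untransfected cells of the same line. Inclusion reads depend on exon length and read length, so between these library types unchanged splicing need not give equal odds. Fisher's exact test of equal odds thus also picks up read length, for these exons and for the shares of all events called. EDB inclusion fell in all 5 knock-downs. The triple knock-down of TKO cells had 0.65, against 0.93 in TKO, with a log2 odds ratio of -2.17 (-2.63 to -1.72) and an adjusted p of 1.89e-17 by Fisher's exact test. The WT triple knock-down had 0.48, against 0.84 in WT, with a log2 odds ratio of -2.35 (-2.73 to -1.97) and adjusted p = 1.12e-29 (exact test). On the reads, EDB had 1037 for inclusion and 312 for skipping after HP1alpha knock-down, 772 and 157 after HP1beta and 516 and 147 after HP1gamma, against 2541 and 133 in WT. The odds ratios were 0.174 for HP1alpha, 0.257 for HP1beta and 0.184 for HP1gamma, with adjusted p of 1.66e-60, 6.58e-25 and 2.07e-35 in the exact test. Levels from distinguishing reads, scaled by exon and read length, gave smaller falls. The difference was -0.166 in the TKO triple knock-down and -0.243 in the WT triple knock-down. It was -0.273, -0.175 and -0.259 after HP1alpha, HP1beta and HP1gamma knock-down.

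A shift in this direction was shared by most exons of like length between these library types. Exons were put in 8 classes of length, and in the class of EDB the median log2 odds ratio was -1.12, -0.93, -0.92 and -1.01 for the triple, HP1alpha, HP1beta and HP1gamma knock-downs against WT. The EDB log2 odds ratio minus the class median was -1.18 in the TKO triple knock-down, and -1.23, -1.60, -1.04 and -1.43 in the WT knock-downs in the same order. With the null odds ratio set to these medians EDB was still called in all 5 (adjusted p from 1.23e-23 to 1.52e-05, exact test). Under this null 436 of 5188 events were called for the TKO triple knock-down against TKO. For the WT knock-downs in the order above, 362 of 4591, 544 of 6048, 492 of 5724 and 446 of 5183 events were called. The median is taken as fixed, so the spread of exons around it is not covered. What part knock-down, transfection and read length each have in it was not tested.

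The Mfge8 exon went the other way. Its inclusion rose to 0.28 in the TKO triple knock-down, against 0.04 in TKO, with a log2 odds ratio of 2.59 (1.58 to 3.60) and an adjusted p of 9.13e-07 by Fisher's exact test. It rose to 0.52 in the WT triple knock-down, against 0.20 in WT, with a log2 odds ratio of 1.01 (0.34 to 1.68) and adjusted p = 0.0242 (exact test). In the single knock-downs its levels of 0.41, 0.41 and 0.46 also had intervals apart from WT, but their reads did not pass. Inclusion and skipping reads were 262 and 151 for HP1alpha, 288 and 154 for HP1beta and 266 and 117 for HP1gamma, against 71 and 48 in WT. That gave log2 odds ratios of 0.23, 0.34 and 0.62 with adjusted p of 0.938, 0.686 and 0.217 in the exact test. Exons of like length had negative medians in the same comparisons, -0.60, -0.69 and -0.57, and against these medians the exon was called in all 3 (adjusted p = 0.0488, 0.00926 and 0.00307, exact test). Of all events, 544 of 6048, 492 of 5724 and 446 of 5183 were called in the same way.

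For EDA the level and the reads pointed in opposite directions in the WT knock-downs. Its level was 0.85 in the WT triple knock-down, against 0.77 in WT. The inclusion reads per skipping read were 39.9 in the knock-down, against 138 in WT, but this ratio depends on read length. With inclusion reads scaled by exon and read length, the levels were 0.915 and 0.955, a smaller gap. In the TKO triple knock-down the scaled level was 0.969, against 0.961 in TKO, the direction of the deposited level. Its log2 odds ratios were -1.79, -1.72, -1.77 and -2.08 in the triple, HP1alpha, HP1beta and HP1gamma knock-downs against WT (adjusted p from 2.55e-05 to 0.00424, exact test), and -0.44 in the TKO triple knock-down against TKO (adjusted p = 1, exact test), whose level was 0.94, against 0.78 in TKO. None of these was called, since the levels in WT cells differed by less than 0.1 and the reads in TKO cells did not pass. Against the medians of exons of like length no EDA comparison with untransfected cells passed (adjusted p from 0.0921 to 1, exact test). Reads that fit both isoforms made up 2.76% to 3.08% of the EDA event reads in the knock-down libraries, against 37.8% in TKO and 34.9% in WT. How these reads enter the level was not tested.

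By comparison, 12.3% of 5188 events were called for the TKO triple knock-down against TKO, and 11.2% of 4591, 11.8% of 6048, 11.8% of 5724 and 11.4% of 5183 for the triple, HP1alpha, HP1beta and HP1gamma knock-downs against WT. The called members were EDB and Mfge8 for each triple knock-down and EDB for each single knock-down.

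**Figure D3:**
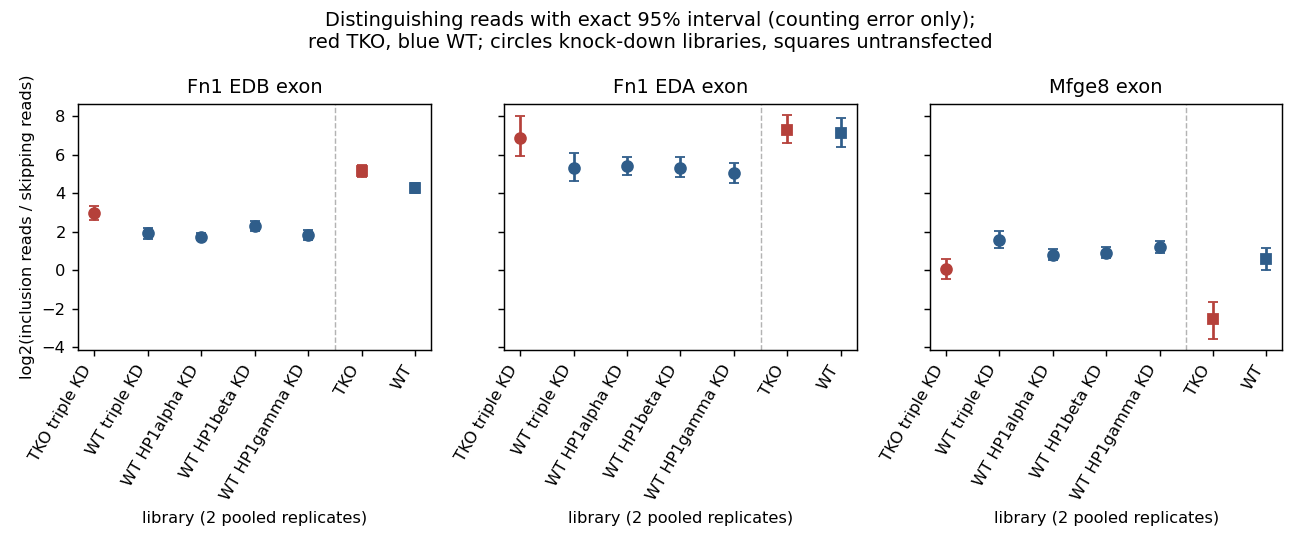
Inclusion reads per skipping read (log2, vertical axis) of the 3 exons in the 7 libraries, with exact 95% intervals for counting error. EDA has at least 32.6 inclusion reads per skipping read in every library, EDB lies between 3.32 and 35.1, and Mfge8 between 0.171 and 2.98. Inclusion reads depend on exon length and read length, so the ratios are not comparable between exons of unlike length or between the library types.

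The knock-downs of WT cells were compared with each other on equal read length, all of them transfected. No member was called in any of these 6 comparisons. EDB differed most between the HP1alpha and HP1beta knock-downs, 0.45 against 0.54, with an odds ratio of 0.676 and a log2 interval of -0.87 to -0.26, an unadjusted p of 0.00033 and an adjusted p of 0.329 in Fisher's exact test. Between HP1beta and HP1gamma, 0.54 against 0.45, it had an unadjusted p of 0.00962 (exact test, adjusted p = 1). For the Mfge8 exon the triple knock-down stood at 0.52, against 0.41 after HP1alpha knock-down (log2 odds ratio 0.78, 0.28 to 1.28) and 0.41 after HP1beta knock-down (0.67, 0.18 to 1.17), with unadjusted p of 0.00214 and 0.0085 and adjusted p of 0.911 and 1 in the exact test. EDA levels lay between 0.82 and 0.86, and its smallest unadjusted p was 0.333 (exact test).

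Few events of any gene were called between these knock-downs: 0.0214% of 4675 for triple against HP1alpha, 0% of 4670 for triple against HP1beta, 0.0217% of 4600 for triple against HP1gamma, 0.0171% of 5841 for HP1alpha against HP1beta, 0% of 5303 for HP1alpha against HP1gamma and 0.019% of 5274 for HP1beta against HP1gamma. That is 0 or 1 event each, with 113 to 150 events at an unadjusted p under 0.05 (Fisher's exact test).

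**Figure D4:**
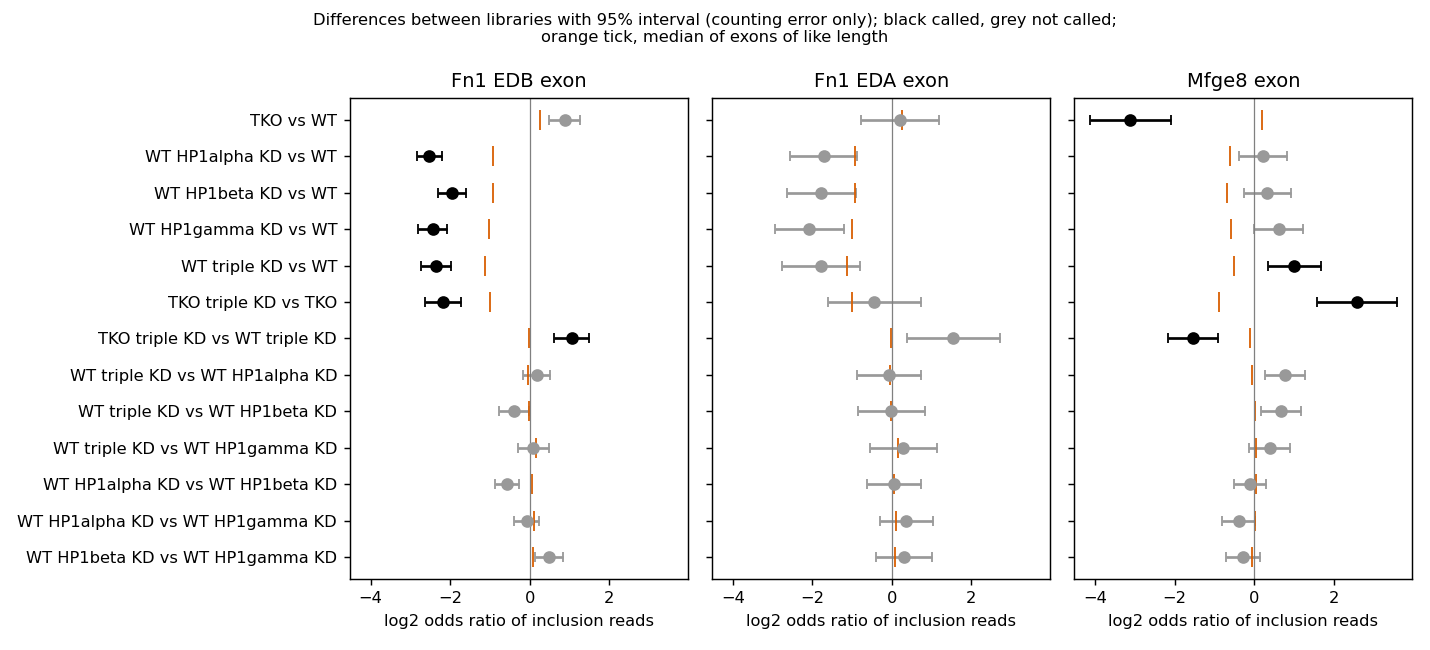
Log2 odds ratio of inclusion reads (horizontal axis) for each of the 13 comparisons and the 3 exons, with 95% intervals for counting error, filled black where the exon was called. The orange ticks give the median of exons of like length. EDB lies left of its tick in all 5 comparisons of a knock-down with untransfected cells, and Mfge8 right of it.

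The exons of Fn1 were compared with one another directly. Within each library EDA and EDB levels stood side by side as 0.94 and 0.65 in the TKO triple knock-down, 0.85 and 0.48 in the WT triple knock-down, 0.86 and 0.45 after HP1alpha, 0.85 and 0.54 after HP1beta and 0.82 and 0.45 after HP1gamma knock-down. In untransfected cells the order was the other way, 0.78 and 0.93 in TKO and 0.77 and 0.84 in WT. The intervals of the exons lay apart in all 7 libraries. Levels estimated from the distinguishing reads alone, with inclusion reads scaled by exon and read length, kept EDA above EDB also in untransfected cells (0.961 and 0.842 in TKO, 0.955 and 0.744 in WT), so the order in those cells depends on how the level is computed. Whether the change between libraries was the same for both exons was tested with Zelen's exact test in all 13 comparisons. Both exons fall in the same class of exon length, so the shift shared by exons of like length is the same for each. The largest gap was in the TKO triple knock-down against TKO, where the log2 odds ratio of EDB was lower than that of EDA by -1.73 (-2.99 to -0.48; unadjusted p = 0.0084, adjusted p = 0.109, exact test). For the WT triple knock-down against WT the gap was -0.56 (-1.61 to 0.49; adjusted p = 0.746, exact test). No pair passed, and with 9 to 41 skipping reads of EDA per library the intervals are wide.

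Event reads of the genes were compared only between libraries of equal read length. Reads of the EDA event, the larger Fn1 event, numbered 289 per 1000000 event reads of the library (RPM; exact Poisson 95% interval 277 to 301) in the TKO triple knock-down and 395 (377 to 413) in the WT triple knock-down, a ratio of 0.730 (0.686 to 0.777). In untransfected cells they numbered 406 (398 to 414) in TKO and 357 (350 to 364) in WT, a ratio of 1.14 (1.11 to 1.17). Fn1 therefore had no common direction in TKO. Mfge8 had 63.5 RPM (58.0 to 69.5) in the TKO triple knock-down and 159 (148 to 171) in the WT triple knock-down, a ratio of 0.399 (0.355 to 0.448), and 57.9 RPM in TKO and 74.5 RPM in WT, a ratio of 0.778 (0.726 to 0.833). After knock-down of HP1alpha, HP1beta or HP1gamma alone, Fn1 had 433, 344 and 352 RPM and Mfge8 136, 150 and 151 RPM. Mfge8 event reads were lower in TKO in both kinds of library, as was the inclusion of its exon. Event reads include those on the exon itself, so neither is independent of the other. In bulk RNA, fewer cells that express a gene and less RNA per cell cannot be told apart.

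**Figure D5:**
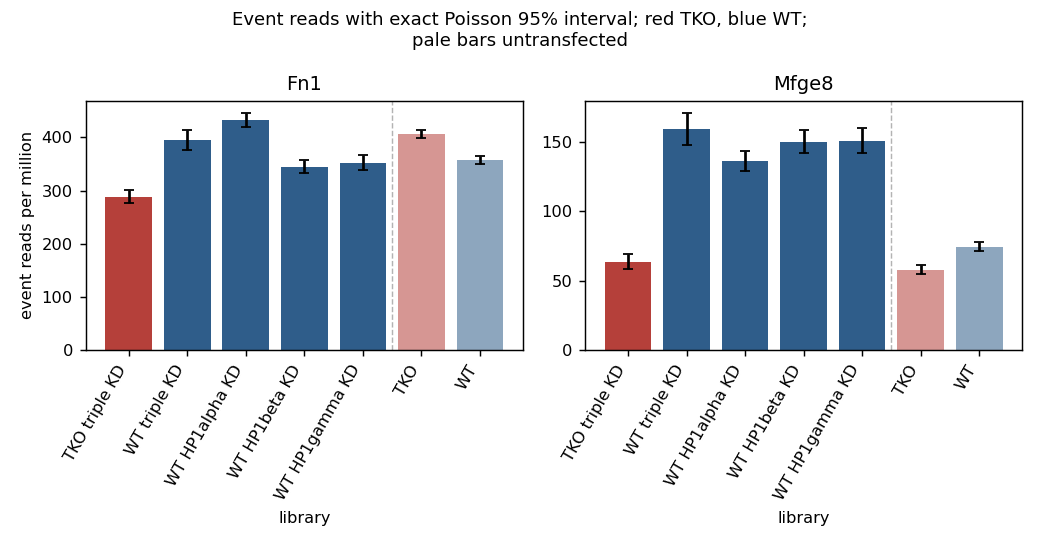
Reads of the larger event of each gene per 1000000 event reads (RPM, vertical axis) in the 7 libraries, with exact Poisson 95% intervals for counting error. Mfge8 is lower in the TKO libraries than in the WT libraries of the same kind (63.5 against 159, and 57.9 against 74.5), and values left and right of the dashed line differ in read length and are not comparable.

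Markers of other cell types that make fibronectin were read where they had an event. Of 15 endoderm markers 3 had one. Sox17 was listed in both TKO libraries (17.7 RPM in the triple knock-down, 14.6 in TKO) and in no WT library. Dab2 had 45.4 RPM in TKO, against 18.1 in WT, and was listed in no knock-down library. Col4a1, the endoderm marker listed in all 7 libraries, had 49.0 RPM in the TKO triple knock-down, against 25.7 in the WT triple knock-down, and 41.8 in TKO, against 7.90 in WT. Of 12 fibroblast and 4 mesoderm markers none had a listed event, and events under 100 reads are not listed. The 5 ES cell markers listed in every library summed to 1358 RPM in the TKO triple knock-down, against 2108 in the WT triple knock-down, and to 2080 in TKO, against 2089 in WT. Single markers went both ways. In the TKO triple knock-down Klf4 (256, against 516 RPM), Sall4 (507, against 984) and Tbx3 (43.3, against 112) were lower than in the WT triple knock-down, and Zfp42 (221, against 202) and Tcl1 (332, against 295) higher. In TKO, Zfp42 was higher (818, against 563 RPM in WT). Sall4 (789, against 979), Klf4 (240.5, against 321.8) and Tdgf1 (85.8, against 129), which is outside the sum, were lower. Tcl1 (178, against 169) and Tbx3 (55.2, against 56.9) differed little. The part of these cell types in the Fn1 and Mfge8 results was not tested.

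Genes around the members were read from 4 lists. Integrins and other receptors had 9 to 14 tested events in 5 or 6 genes. Between TKO and WT none was called in either kind of library, nor in the TKO triple knock-down against TKO (Fisher's exact test). In the WT triple knock-down against WT 2 of 11 were called, both lower, where 11.2% of all events were called, 430 of 514 of them lower. Both were events of 1 gene, Dag1, which encodes the dystroglycan that binds laminin. The event with the larger difference had 0.27, against 0.71 in WT (adjusted p = 0.0446, exact test). Its call was lost against exons of like length (adjusted p = 0.191, exact test). Median absolute differences were 0.01 to 0.02, against 0.02 to 0.06 over all events. Of the secreted matrix genes, an exon of Plod2, a lysyl hydroxylase of collagen, rose to 0.33 in the WT triple knock-down, against 0.12 in WT, and to 0.25 in the TKO triple knock-down, against 0.07 in TKO (adjusted p = 0.00654 and 0.00785, exact test). The long exon of the proteoglycan gene Vcan fell to 0.18 in the WT triple knock-down, against 0.37 in WT (adjusted p = 0.00915, exact test), a call that was lost against exons of like length (adjusted p = 0.0589, exact test). These were 1 higher and 1 lower of 11 events for WT and 1 higher of 15 for TKO, where 11.2% and 12.3% of all events were called. None of 18 and of 10 events was called for TKO against WT in untransfected cells and under the triple knock-down.

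Focal adhesion and engulfment genes had 5 of 52 events called in TKO against WT, all 5 higher, or 9.62%, where 4.57% of all events were called, 245 higher and 107 lower. They included exons of the kinase Src (0.82 in TKO, 0.35 in WT), of Git2, an adaptor of focal adhesions (0.75 and 0.50, an event of 150 nucleotides), of the actin cross-linker Flna (0.36 and 0.22) and of the actin-binding Cttn (1.00 and 0.90). A 105-nucleotide event of Git2 (0.70 in TKO, 0.46 in WT) overlaps that of 150 nucleotides and had the same skipping reads, 8 in TKO and 57 in WT. Overlapping events of 1 gene are counted separately in these shares. Under the triple knock-down 0 of 27 was called between TKO and WT. Against untransfected cells, 1 of 26 events fell in the WT triple knock-down, where 11.2% of all events were called. It was the 105-nucleotide event of Git2 (0.25, against 0.46 in WT). In the TKO triple knock-down 4 of 33 fell, where 12.3% of all events were called. All 4 lay in Git2 (for the same event 0.30, against 0.70 in TKO), Crkl (0.70 and 1.00) and the focal adhesion kinase gene Ptk2 (0.19 and 0.43). The Git2 call in WT cells was lost against exons of like length (adjusted p = 0.226, exact test), and that of Crkl with levels from distinguishing reads, which differed by -0.0882. The median absolute difference of the list was 0.01 in TKO against WT and 0.02 under the triple knock-down, against 0.02 over all events in each.

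The last list held splicing factors that have been studied on fibronectin exons. In the TKO triple knock-down against TKO 10 of 24 events, in 12 tested genes, were called, 2 higher and 8 lower in level. Over all events 12.3% were called, 68 higher and 568 lower. The list had a median absolute difference of 0.18, against 0.05 over all events. In the WT triple knock-down against WT 7 of 25 were called, 2 higher and 5 lower, where 11.2% of all events were called, and the median was 0.08, against 0.06. In both comparisons several events can share a gene, and the lower ones include the Hnrnpa1 event described below. An exon of Tra2a, an activator of exon inclusion, fell to 0.13 in the TKO triple knock-down, against 0.74 in TKO, and to 0.10 in the WT triple knock-down, against 0.68 in WT (adjusted p = 1.11e-74 and 2.4e-67, exact test). An exon of Hnrnpa2b1 fell to 0.10, against 0.53 in TKO, and to 0.21, against 0.52 in WT (adjusted p = 3.63e-176 and 5.88e-21, exact test). An exon of Ptbp1, a repressor of many cassette exons, fell to 0.41 in the WT triple knock-down, against 0.65 in WT, and an exon of Esrp1, a splicing factor of epithelial cells, to 0.47 in the TKO triple knock-down, against 0.85 in TKO. The Esrp1 call was lost against exons of like length (adjusted p = 0.128, exact test). The level of a Hnrnpa1 event was also lower (0.66, against 0.99 in TKO, and 0.74, against 0.99 in WT), but its distinguishing reads pointed the other way, 13881 and 14 in the TKO triple knock-down, against 33705 and 184 in TKO. In TKO against WT 1 of 31 events was called, in Celf1 (0.48 in TKO, 0.30 in WT), where 4.57% of all events were called. Under the triple knock-down 2 of 24 were called between TKO and WT, where 0.469% of all events were called. Both were lower and both were events of 1 gene, Hnrnpa2b1, led by another exon than that above (0.36 in TKO, 0.51 in WT).

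Exons of other genes with the most similar pattern of levels over the 7 libraries were sought among 4226 candidates for EDB and 4227 for Mfge8, by the root mean square difference in level. Nearest to EDB were a 214-nucleotide exon of Srpk1, a kinase of SR splicing factors (0.036), an exon of 4931428F04Rik (0.039) and an exon of the noncoding Meg3 (0.043), where the median candidate stood at 0.378. The Srpk1 exon had 0.59 and 0.48 in the TKO and WT triple knock-downs, 0.47, 0.59 and 0.42 after HP1alpha, HP1beta and HP1gamma knock-down, and 0.90 and 0.87 in TKO and WT. Nearest to the Mfge8 exon were exons of the adhesion receptor gene Adgre5 (0.072), of Rbbp6 (0.083) and of Prkar1a (0.091), where the median was 0.575. The Adgre5 exon had 0.30 and 0.54 in the TKO and WT triple knock-downs, 0.44, 0.34 and 0.42 in the single ones, and 0.18 and 0.29 in TKO and WT. These are descriptions, over libraries that share a platform within each type.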

How the data were processed

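RNA from 14 samples in 7 groups was used, while the bisulfite and MNase samples were not analysed here. TopHat2, Bowtie2 and the mm10 build are named in the submitters' processing notes without versions. Per the file headers the tables are MISO summaries of skipped exons. For MISO, the version and annotation of events were not given in the sources used here. As deposited, the level of inclusion is a fraction between 0 and 1 with an interval. The labels name the same table for each pair of replicates, which the authors therefore pooled. The text column of reads per class in the deposited files was parsed into inclusion-only, skipping-only, both and neither. Every listed event has at least 100 reads.

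Events were assigned to genes by spans of the GRCm38.p6 gene table, which gave 10521 events in 1 gene. Tests ran over all events with Python 3.11.15 and scipy 1.17.1: Fisher's exact test, Zelen's exact test and, over 8 classes of exon length with at least 5 reads per class and library, an exact test with the class median as null odds ratio. The scripts were tested on simulated data, in which the effect of unequal read length was not simulated. Members, lists and tests were chosen with earlier results of these data known. All events of both genes are named, with up to 4 called genes per list and comparison by size of difference, and the 3 nearest patterns. Event reads were scaled per 1000000 event reads of the library (RPM). Alternatives tried were other read and difference minimums, levels from reads, the length-set null and interval separation. Exon sequences were not used here.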

Additional observations from a re-analysis of the deposited data

How the results depend on the processing

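No paired analysis was possible because the replicates of each group were pooled before deposit, and leaving out a replicate was not possible for the same reason. Without a minimum difference 2 members were called, in place of 1, in TKO against WT and in each single knock-down against WT, and 3 in place of 2, with EDA added, in the WT triple knock-down against WT. With intervals apart 3 in place of 2 were called in the TKO triple knock-down against TKO. A minimum of 0.2 left 0 in TKO against WT and 1 in the TKO against the WT triple knock-down. In each single knock-down against WT, 2 members in place of 1 were also called with the length-set null and with intervals apart, the Mfge8 exon being the added one under the length-set null. EDA reversed when levels came from distinguishing reads, with differences of -0.0360, -0.0390, -0.0567 and -0.0397 for HP1alpha, HP1beta, HP1gamma and the triple knock-down against WT. So did Hnrnpa1 (0.127 for the WT and 0.146 for the TKO triple knock-down, an alternative chosen after seeing the data). Dag1, Vcan, Git2 (WT) and Esrp1 lost their call with the length-set null (adjusted p = 0.191, 0.0589, 0.226 and 0.128, exact test), and Crkl with levels from reads. The cause was not tested. From distinguishing reads alone the event read ratios were 1.21 (Fn1) and 0.681 (Mfge8) for TKO to WT, and 0.905 and 0.325 for the TKO to the WT triple knock-down.

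Over all events, TKO against WT had 352 calls, 688 without a minimum difference and 147 at 0.2. The TKO against the WT triple knock-down had 21, 33 and 11, and 71 with intervals apart. Knock-downs against untransfected cells had 514 to 713 calls, 787 to 1142 without a minimum, 297 to 425 at 0.2 and 861 to 1114 with intervals apart. With the length-set null they had 362 to 544. Between WT knock-downs 0 to 1 became 9 to 31 with intervals apart and at most 4 under the other settings.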

Other observations

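Reads that fit neither isoform of an event were the largest class for the Mfge8 exon in all 5 knock-down libraries, 67.8% in the TKO triple knock-down and 61.0% to 66.0% in the WT knock-downs. They made up 38.5% in TKO and 45.0% in WT, where reads that fit both isoforms were the largest class (55.9% and 48.9%). For EDB the share that fits neither was 35.2% in the TKO triple knock-down, 41.7% to 44.8% in the WT knock-downs, 21.6% in TKO and 18.4% in WT. Distinguishing reads of the Mfge8 exon numbered 132 in the TKO triple knock-down, 255 to 442 in the WT knock-downs, 82 in TKO and 119 in WT, so its values in untransfected cells rest on the fewest reads of the 3 exons.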
